A study of Homo sapiens with 36 samples.

Results

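PGD, PGLS, H6PD, RPIA, RPE, TKT and TALDO1 encode enzymes of the pentose phosphate pathway. These 7 genes were picked by symbol as members of the pathway, with earlier results of these data known, among the 60591 genes of the mRNA count table, and all 7 passed the filter on low counts in both cell lines. Their RNA was measured in 18 mRNA libraries from 2 human colorectal cancer cell lines, with 3 biological replicates in each of 6 groups. Caco-2 cells were kept under differentiation conditions for 21 days in Eagle's MEM, and HT-29 cells were grown in McCoy's 5A medium, so line, medium and culture state cannot be told apart. In each line the cells were left without agent (control), or were kept for 24 h in 300 µM CoCl2 or in 5 µM of an oxyquinoline derivative (OD, labelled Oxy). OD was added in DMSO and the control medium held the same 0.5 µl of DMSO per ml, whereas CoCl2 was dissolved in water. The published methods for Caco-2 give 0.5% DMSO and also put it into the medium with CoCl2. The sample labels give 0.5 µl per ml and name DMSO for OD and control only, so the sources also differ in the amount. Both agents are used as chemical activators of the hypoxia response, through stabilization of hypoxia-inducible factor (HIF). Each line stands for 1 tumor-derived cell population in culture, not for normal intestinal tissue.

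The pentose phosphate pathway branches off from glycolysis at glucose 6-phosphate. Its oxidative branch yields NADPH, the reductant for glutathione and thioredoxin recycling and for lipid synthesis, and ends in a pentose phosphate. Its non-oxidative branch interconverts pentose phosphates with sugars of glycolysis, so that ribose 5-phosphate for nucleotides can be made from either side. PGLS (6-phosphogluconolactonase) and PGD (6-phosphogluconate dehydrogenase) carry the cytosolic oxidative steps, and H6PD carries the first oxidative steps inside the endoplasmic reticulum. RPIA (ribose 5-phosphate isomerase) and RPE (ribulose 5-phosphate epimerase) sort the pentose phosphates, and TKT (transketolase) and TALDO1 (transaldolase) move carbon units between sugars. The transcription factor NRF2, which responds to oxidants and electrophiles, is known to activate several genes of this pathway.

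In the human genome GRCh38 (GENCODE release 44) PGD lies on chromosome 1 from 10398592 to 10420511, H6PD on chromosome 1 from 9234774 to 9271337, and PGLS on chromosome 19 from 17511636 to 17521288. RPIA lies on chromosome 2 from 88691673 to 88750929, RPE on chromosome 2 from 210002565 to 210022260, and TALDO1 on chromosome 11 from 747415 to 765012, all on the plus strand. TKT lies on the minus strand of chromosome 3 from 53224712 to 53256052. Stretches before the RefSeq start of 4 of the genes are shown because PGD, TKT and TALDO1 were those that rose with CoCl2 and RPIA had the largest fall with it in HT-29 (in Caco-2 that of H6PD was larger). They are RefSeq sequences (GRCh38.p14), limited to bases outside exons annotated by GENCODE, read 5′ to 3′ along the gene. The GENCODE gene of PGD starts before its RefSeq start, so the stretch shown for PGD lies in an intron of the annotated gene. Capitals mark matches to the core of the antioxidant response element bound by NRF2 (TGACNNNGC) or to the core of the hypoxia response element bound by HIF (ACGTG or GCGTG), on either strand.
PGD, chr1:10398814-10399043, plus strand: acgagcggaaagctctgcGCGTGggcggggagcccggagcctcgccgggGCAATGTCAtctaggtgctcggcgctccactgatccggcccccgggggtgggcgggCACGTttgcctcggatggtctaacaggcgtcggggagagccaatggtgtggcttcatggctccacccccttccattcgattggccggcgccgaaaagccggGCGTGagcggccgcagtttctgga
TKT, chr3:53256053-53256272, minus strand: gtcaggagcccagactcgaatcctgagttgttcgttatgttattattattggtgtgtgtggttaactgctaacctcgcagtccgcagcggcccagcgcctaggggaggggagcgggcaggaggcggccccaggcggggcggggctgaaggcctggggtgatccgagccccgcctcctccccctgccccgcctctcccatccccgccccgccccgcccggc
TALDO1, chr11:747214-747414, plus strand: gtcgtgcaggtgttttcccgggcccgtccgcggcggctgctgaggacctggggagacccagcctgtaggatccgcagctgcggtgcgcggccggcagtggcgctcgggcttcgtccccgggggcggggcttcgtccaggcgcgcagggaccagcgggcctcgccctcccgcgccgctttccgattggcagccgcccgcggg
RPIA, chr2:88691519-88691672, plus strand: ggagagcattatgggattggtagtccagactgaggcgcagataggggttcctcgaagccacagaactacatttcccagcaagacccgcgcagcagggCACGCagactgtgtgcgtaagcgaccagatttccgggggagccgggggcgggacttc
In the 250 bases before the RefSeq start, PGD held 1 match to the antioxidant core and 3 matches to the hypoxia core, RPIA held 1 hypoxia core and RPE held 1 antioxidant core. PGLS, H6PD (whose window also lies inside the annotated gene), TKT and TALDO1 held neither. Among 35116 promoter windows of that length, 10.9% held at least 1 antioxidant core and 43.2% at least 1 hypoxia core. A match to the hypoxia core is thus common and one to the antioxidant core less so, and how many windows hold 3 was not counted. These short windows do not cover distant elements, and a match is a stretch of letters, not a measured binding site.

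The 18 libraries held 12925719 to 22332639 counts, and the 7 genes were covered by 143 (RPIA) to 26030 (TKT) counts in a library. Summed levels of 9 intestinal epithelial markers went from 5725 to 5822 CPM (counts scaled to a library total of 1000000) in Caco-2 control libraries to 7415 to 8222 CPM with CoCl2 and 6892 to 7040 CPM with OD. In HT-29 they were 6486 to 6541, 6217 to 6658 and 7767 to 8296 CPM in that order, and at most 1 marker was at 0 in a library. The 9 enterocyte markers summed to 4135 to 4733 CPM in Caco-2, with overlapping groups, and in HT-29 to 272 to 279 CPM in control, 201 to 211 with CoCl2 and 218 to 225 with OD. The 6 fibroblast markers summed to 41.3 to 42.7, 27.8 to 29.2 and 26.0 to 32.7 CPM in Caco-2 and to at most 8.59 CPM in HT-29. The 8 immune and endothelial markers summed to 41.2 to 45.3, 29.6 to 30.9 and 25.8 to 34.0 CPM in Caco-2 and to 1299 to 1331, 854 to 900 and 1232 to 1296 CPM in HT-29, and 1 to 4 of each of these 2 lists were at 0. In HT-29 4 to 6 of these 8 markers held at most 3 counts in a library, so that few genes made up their sum. Several of these sums thus moved with the agents, and their part in the results was not tested. The first CoCl2 and the first OD library of Caco-2 stood apart from their group mates, with chi-square values of 8.79 to 12.6 per degree of freedom over genes, against 2.90 to 3.59 for the other Caco-2 pairs. In HT-29 the third control library stood apart by less, at 5.00 and 6.10, against 1.96 to 3.83 for the other pairs. Leaving out both together changed no call of the 7 genes against control at a false discovery rate (FDR) of 0.05 except PGLS with CoCl2 (given with that gene). Leaving out the third HT-29 control library changed no FDR call of the 7 genes, and 1 fold limit, that of RPIA in the difference between the lines (given there).

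CoCl2 raised PGD, TKT and TALDO1 and lowered H6PD, RPIA and RPE in both lines. The largest change was that of TKT in HT-29, which rose 5.05-fold. PGLS fell in HT-29 and did not pass the test in Caco-2. In Caco-2 6 of the 7 genes passed an FDR of 0.05 (3 higher, 3 lower), where 64.7% of 16034 genes did (31.6% higher, 33.1% lower), and only TKT was also past a log2 fold change of 1 in size, where 23.4% of genes were. In HT-29 all 7 passed (3 higher, 4 lower), where 82.8% of 15812 genes did (40.7% higher, 42.2% lower), and 5 were past the fold limit, where 41.3% of genes were. Since most genes passed, the account rests on the size and direction of each gene's change. A change is a log2 fold change from edgeR, over 3 libraries a group, with a standard error (SE) derived from the edgeR test.

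Among the oxidative enzymes PGD, which makes NADPH and ribulose 5-phosphate, stood at 225, 216 and 216 CPM in Caco-2 control libraries and at 342, 303 and 316 CPM with CoCl2. In HT-29 PGD went from 169, 173 and 168 CPM to 561, 553 and 565 CPM. The groups did not overlap in either line, as for 69.0% of genes in Caco-2 and 83.2% in HT-29. PGD thus rose by 0.55 (SE 0.07, edgeR FDR 3.72e-07) in Caco-2 and by 1.72 (SE 0.04, FDR 1.68e-22) in HT-29.

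PGLS, which opens the lactone ring between the dehydrogenase steps, moved the least. Its Caco-2 libraries held 31.3, 37.7 and 33.7 CPM in control and 32.9, 26.7 and 29.5 CPM with CoCl2, so the groups overlapped. The HT-29 values were 29.6, 34.1 and 32.0 CPM in control and 28.2, 27.7 and 27.8 CPM with CoCl2, with every CoCl2 library below every control library. The change was -0.21 (SE 0.10, edgeR FDR 0.0795) in Caco-2 and -0.20 (SE 0.06, FDR 0.00725), a fall, in HT-29. Without the first CoCl2 and first OD library of Caco-2, PGLS passed there at -0.27 (edgeR FDR 0.0117), and on library size alone the change was -0.53 (FDR 0.000148). It also passed without the first CoCl2 library alone (edgeR FDR 0.0247), without the first control library (0.0493), in 1 fit over 18 libraries (0.0343) and with limma (FDR 0.0416).

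H6PD fell where PGD rose. Its levels were 90.7, 85.5 and 82.3 CPM in Caco-2 control libraries and 44.4, 43.3 and 43.9 CPM with CoCl2. HT-29 libraries held 64.4, 59.2 and 58.9 CPM in control and 24.4, 27.0 and 25.6 CPM with CoCl2. H6PD was therefore at 0.51 of its control level in Caco-2 (log2 fold change -0.97, SE 0.09, edgeR FDR 1.40e-09) and at 0.42 in HT-29 (-1.24, SE 0.07, FDR 1.35e-15). The Caco-2 value sat just inside the fold limit and passed it at -1.01 when the third control library was left out.

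Both pentose phosphate sorting enzymes fell. RPIA, which makes ribose 5-phosphate, held 22.5, 24.2 and 24.2 CPM in Caco-2 control libraries and 15.8, 16.3 and 14.8 CPM with CoCl2. In HT-29 RPIA went from 32.3, 34.9 and 39.0 CPM to 11.1, 14.3 and 11.8 CPM. All 3 CoCl2 libraries lay below all 3 control libraries in each line, and the fall was larger in HT-29 (log2 fold change -1.52, SE 0.09, edgeR FDR 9.13e-15) than in Caco-2 (-0.60, SE 0.12, FDR 0.000140), a difference tested further on.

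RPE, which makes xylulose 5-phosphate, changed less. Its Caco-2 libraries held 58.7, 47.9 and 53.4 CPM in control against 41.7, 46.4 and 46.6 CPM with CoCl2. The HT-29 libraries held 63.0, 67.9 and 65.1 CPM against 50.2, 49.7 and 51.0 CPM. The fall in HT-29 was -0.38 (SE 0.05, edgeR FDR 4.04e-07). In Caco-2 it was -0.25 (SE 0.09, FDR 0.0212), a call that was lost with DESeq2 (FDR 0.0527) and without the first CoCl2, the first control or the third control library (edgeR FDR 0.0760, 0.155 and 0.0533). Exon sequence of RPE lies within the span of KANSL1L on the opposite strand, which held 164 to 1529 counts a library. Exon sequence of PGLS likewise lies within the span of the antisense gene PGLS-DT. Whether it meets exons of those genes was not checked. Since the use of strand in counting is not given, any reads of shared stretches cannot be told apart.

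TKT and TALDO1, the transferases of the non-oxidative branch, rose together with PGD. TKT stood at 279, 292 and 302 CPM in Caco-2 control libraries and at 706, 584 and 615 CPM with CoCl2. In HT-29 it went from 366, 360 and 356 CPM to 1838, 1800 and 1817 CPM, so that the libraries of a group differed by far less than the groups did. TKT rose by 1.13 (SE 0.08, edgeR FDR 5.92e-12) in Caco-2 and by 2.34 (SE 0.04, FDR 9.90e-26) in HT-29. Its paralogs TKTL1 and TKTL2 held 0 or 1 count in each library.

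TALDO1 stood at 161, 181 and 177 CPM in Caco-2 control libraries and at 291, 260 and 256 CPM with CoCl2. The HT-29 libraries went from 265, 272 and 268 CPM to 940, 895 and 911 CPM. Again no CoCl2 library reached down to a control library. The rise was 1.56-fold in Caco-2 (log2 fold change 0.64, SE 0.08, edgeR FDR 8.36e-08) and 3.41-fold in HT-29 (1.77, SE 0.04, FDR 3.47e-23).

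**Figure D1:**
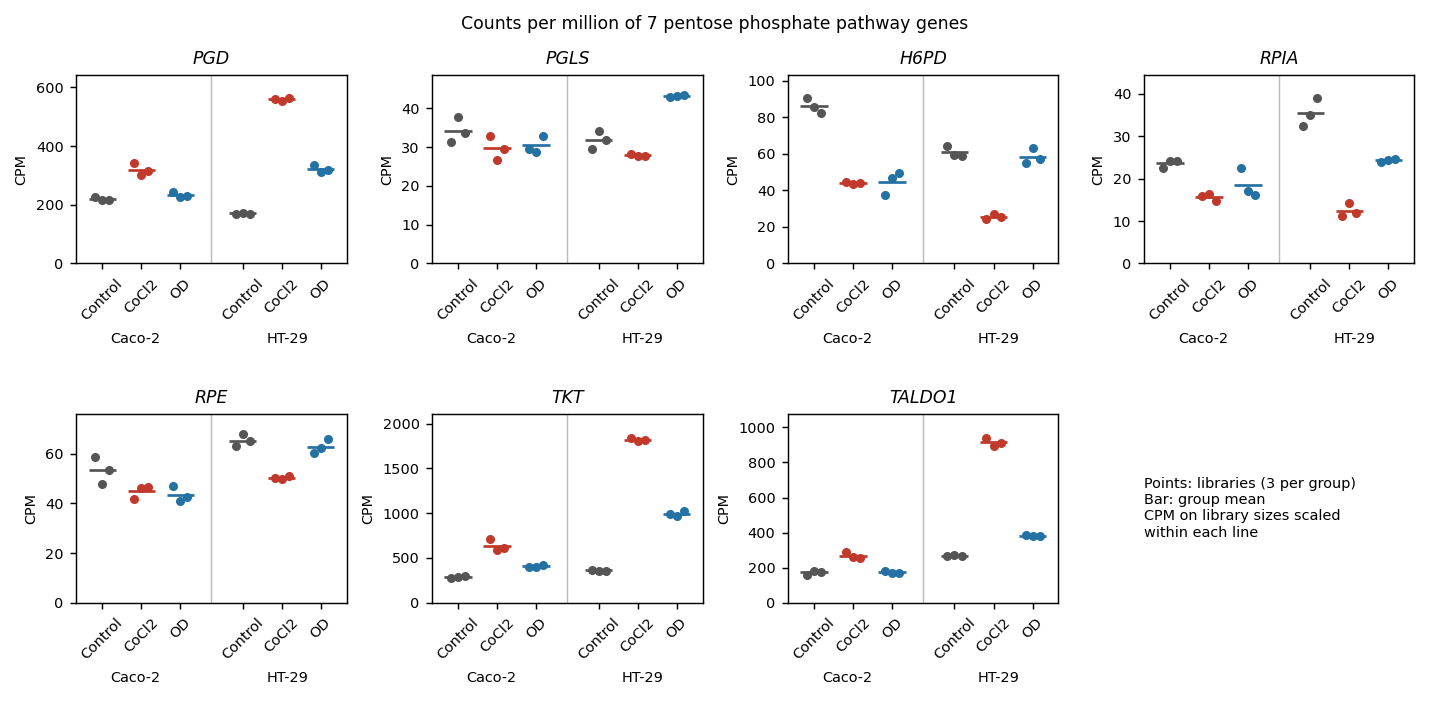
Level of PGD, PGLS, H6PD, RPIA, RPE, TKT and TALDO1 in CPM (linear axis from 0, its own scale in each panel), with 1 point for each of the 3 libraries of a group and a bar at the group mean. PGD, TKT and TALDO1 are highest with CoCl2 in both lines, and H6PD in Caco-2 is low with both agents but in HT-29 only with CoCl2.

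The directions above are relative to library sizes scaled with TMM (trimmed mean of M values). On library size alone the median change of all genes was lower by 0.32 in Caco-2 and by 0.63 in HT-29 for CoCl2, and by 0.15 and 0.14 for OD. On that scale H6PD (-1.30) passed the fold limit with CoCl2 in Caco-2 in place of TKT, and RPE (-1.01) passed it in HT-29. With CoCl2 each of the 7 genes kept its direction, with TKT at 0.81 and 1.70, PGD at 0.22 and 1.08 and TALDO1 at 0.32 and 1.14 in Caco-2 and HT-29.

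With OD fewer of the 7 genes passed the test than with CoCl2. In HT-29 PGD, PGLS, TKT and TALDO1 rose and RPIA fell. In Caco-2 TKT rose and H6PD, RPIA and RPE fell. There 4 of the 7 genes passed the FDR (1 higher, 3 lower), where 50.4% of all genes did (25.7% higher, 24.7% lower), and 0 were past the fold limit, where 11.7% of genes were. DESeq2 and limma also put 0 past that limit, and 4 had an unadjusted edgeR p under 0.05. In HT-29 5 of the 7 passed (4 higher, 1 lower), where 68.8% of genes did (34.7% higher, 34.0% lower), and TKT alone was past the fold limit, where 17.1% of genes were. The groups did not overlap for 5 of the 7 genes in either line, against 59.4% of genes in Caco-2 and 71.1% in HT-29.

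Of the oxidative enzymes, PGD stood at 243, 225 and 230 CPM with OD in Caco-2, just above its 3 control libraries, and at 334, 313 and 320 CPM in HT-29, far above its control libraries. The change was 0.09 (SE 0.07, edgeR FDR 0.327) in Caco-2 and a rise of 0.92 (SE 0.04, FDR 4.96e-16) in HT-29. PGLS held 29.7, 28.9 and 32.8 CPM with OD in Caco-2, within reach of control, and 42.9, 43.1 and 43.5 CPM in HT-29, above all other HT-29 libraries. Its change was -0.17 (SE 0.10, edgeR FDR 0.171) in Caco-2 and a rise of 0.43 (SE 0.06, FDR 3.13e-07) in HT-29.

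H6PD showed the reverse split between the lines. With OD the Caco-2 libraries held 37.7, 46.7 and 49.4 CPM, as low as with CoCl2, and the HT-29 libraries 55.1, 63.4 and 56.9 CPM, overlapping with control. The fall in Caco-2 was -0.95 (SE 0.09, edgeR FDR 5.16e-09), and -1.02 without the third OD library, while the change in HT-29 was -0.06 (95% interval -0.17 to 0.06, FDR 0.398). On library size alone H6PD passed in HT-29 as well, at -0.19 (edgeR FDR 0.00596).

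RPIA held 22.5, 17.0 and 16.2 CPM with OD in Caco-2, where the first OD library was barely below the lowest control library. In HT-29 its OD libraries held 24.0, 24.4 and 24.6 CPM, all well below control. The fall was -0.55 (SE 0.08, edgeR FDR 3.51e-07) in HT-29. In Caco-2 it was -0.35 (SE 0.12, FDR 0.0175), a call that was lost without the second or the third control library (edgeR FDR 0.0577 and 0.0590) and without the second or the third OD library (0.0965 and 0.103).

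RPE held 47.1, 41.0 and 42.7 CPM with OD in Caco-2 and 60.5, 62.3 and 65.9 CPM in HT-29. Only the Caco-2 libraries lay wholly below control. The Caco-2 fall of -0.29 (SE 0.09, edgeR FDR 0.0103) was lost without the first control or the second OD library (FDR 0.0955 and 0.0650), and the HT-29 change was -0.06 (95% interval -0.16 to 0.05, FDR 0.337). On library size alone RPE passed in HT-29 at -0.19 (edgeR FDR 0.00170), so that with H6PD and RPIA 3 genes fell and 4 rose there, against 1 and 4 with TMM.

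TKT was the gene that OD raised in both lines. Its OD libraries held 400.00, 394 and 425 CPM in Caco-2 and 991, 968 and 1025 CPM in HT-29, and none overlapped with control. The rise was 1.40-fold in Caco-2 (log2 fold change 0.48, SE 0.08, edgeR FDR 1.34e-05) and 2.76-fold in HT-29 (1.47, SE 0.04, FDR 1.21e-20). TALDO1 held 184, 168 and 171 CPM with OD in Caco-2, among the control values, and 384, 380 and 381 CPM in HT-29. Its change was 0.01 (95% interval -0.15 to 0.17, edgeR FDR 0.909) in Caco-2 and a rise of 0.51 (SE 0.04, FDR 3.88e-11) in HT-29.

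**Figure D2:**
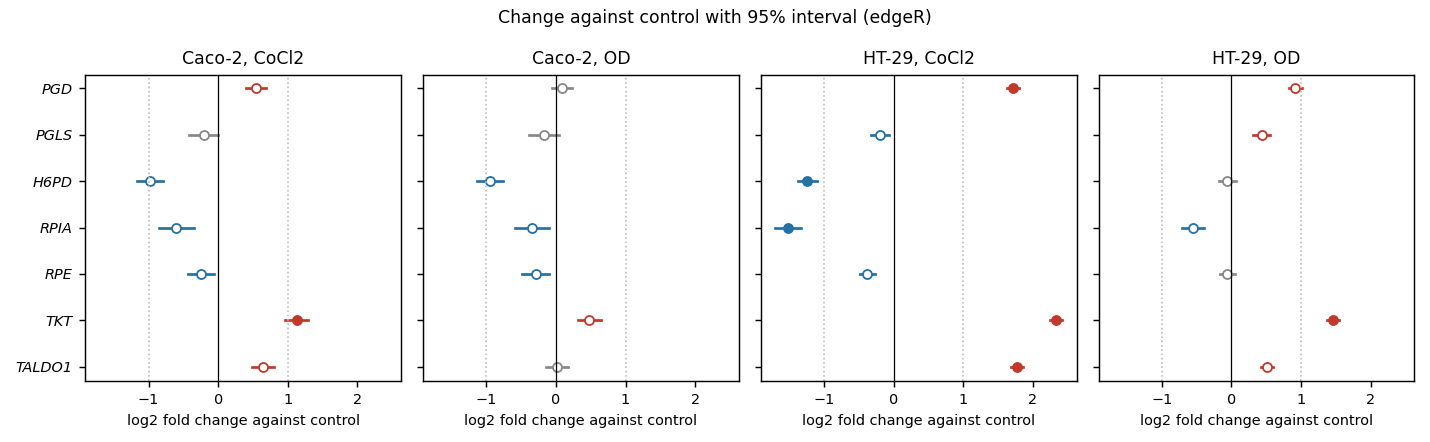
Log2 fold change against control of PGD, PGLS, H6PD, RPIA, RPE, TKT and TALDO1 (x axis) with a 95% interval derived from the edgeR test, for CoCl2 and OD in each line. Red and blue mark genes that rose or fell at an FDR of 0.05, gray those that did not pass, filled points are past a log2 fold change of 1 (dotted lines), and TKT is the one gene filled in 3 of the 4 panels, reaching 2.34 with CoCl2 in HT-29.

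The 2 agents were also compared directly, at doses that differ (300 µM CoCl2 and 5 µM OD), so a difference between them is one between these treatments as given. In Caco-2 PGD, TKT and TALDO1 were higher with CoCl2 than with OD, by 0.46 (SE 0.07, edgeR FDR 8.71e-06), 0.64 (SE 0.08, FDR 2.10e-07) and 0.63 (SE 0.08, FDR 2.64e-07). These 3 of 7 stand against 49.6% of all genes. None of the 7 was past the fold limit, where 11.7% of genes were, and DESeq2 and limma also put 0 there, while 3 had an unadjusted edgeR p under 0.05. H6PD differed between the agents by -0.02 (95% interval -0.21 to 0.17), PGLS by -0.04 (-0.25 to 0.18), RPE by 0.04 (-0.15 to 0.24) and RPIA by -0.25 (-0.51 to 0.004), and none of these passed.

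In HT-29 all 7 genes differed between CoCl2 and OD, where 77.7% of genes did. PGD, TKT and TALDO1 were higher with CoCl2, by 0.80, 0.87 and 1.26 (SE 0.04 each, edgeR FDR 3.55e-15 or lower). The other 4 were lower with CoCl2: PGLS by -0.63 (SE 0.06), H6PD by -1.19 (SE 0.07), RPIA by -0.96 (SE 0.09) and RPE by -0.32 (SE 0.05), with an edgeR FDR of 6.42e-06 or lower. H6PD and TALDO1 were past the fold limit, where 29.9% of genes were, and RPIA joined them at -1.08 when the second CoCl2 library of HT-29 was left out. On library size alone TALDO1 was at 0.76 and PGLS and RPIA were past the limit (-1.13 and -1.46).

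Whether a response differed between the lines was tested as an interaction over all 18 libraries. The rise with CoCl2 was larger in HT-29 than in Caco-2 for PGD by 1.06 (SE 0.08, edgeR FDR 8.31e-13), for TKT by 1.10 (SE 0.09, FDR 2.08e-12) and for TALDO1 by 1.02 (SE 0.09, FDR 7.18e-12). The fall was larger in HT-29 for RPIA, by -1.02 (SE 0.16, edgeR FDR 1.25e-06), and for H6PD, by -0.38 (SE 0.12, FDR 0.00700). PGLS (-0.10, 95% interval -0.34 to 0.15) and RPE (-0.24, -0.45 to -0.02, edgeR FDR 0.0634) did not pass. These 5 of 7 stand against 49.8% of 17921 genes, and the 4 past the fold limit against 21.6%. The median of all genes in this comparison was -0.13, so the rises stood further from the bulk of genes, and the falls nearer to it, than the values alone show. Without the second CoCl2 library of Caco-2, 2 genes (PGD and TKT) remained past the fold limit, with TALDO1 at 0.998 and RPIA at -0.99, and on library size alone only RPIA did (-1.23), with PGD, TKT and TALDO1 at 0.86, 0.90 and 0.82. Leaving out 1 of 5 other libraries also took a gene just under the limit: TALDO1 without the third CoCl2 (0.98) or the second control library (0.99) of Caco-2, and RPIA without the first control library of Caco-2 (-0.99) and without the first CoCl2 (-0.95) or the third control library (-0.94) of HT-29. DESeq2 (-0.92) and limma (-0.90) put RPIA there as well. The FDR call of H6PD was lost with DESeq2 (FDR 0.0741) and with limma (FDR 0.100).

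For OD the response was higher in HT-29 than in Caco-2 for PGD by 0.82 (SE 0.08, edgeR FDR 6.40e-10), TKT by 0.97 (SE 0.09, FDR 8.16e-11) and H6PD by 0.88 (SE 0.11, FDR 4.50e-08). PGLS followed by 0.59 (SE 0.12, edgeR FDR 9.94e-05) and TALDO1 by 0.48 (SE 0.09, FDR 3.00e-05). For H6PD this is the difference between a fall in Caco-2 and overlapping groups in HT-29. RPIA (-0.22, 95% interval -0.51 to 0.07) and RPE (0.22, 0.01 to 0.43, edgeR FDR 0.0906) did not pass. In all 5 of 7 passed, where 42.9% of genes did, and 0 were past the fold limit, where 15.2% of genes were. DESeq2 and limma also put 0 past it, and 6 of the 7 had an unadjusted edgeR p under 0.05.

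In the control cells the lines differed modestly in these genes. HT-29 was higher than Caco-2 in TALDO1 by 0.73 (SE 0.06, edgeR FDR 1.35e-12), RPIA by 0.68 (SE 0.10, FDR 1.75e-07), TKT by 0.40 (SE 0.06, FDR 9.22e-07) and RPE by 0.38 (SE 0.07, FDR 1.86e-05). It was lower in H6PD by -0.41 (SE 0.08, edgeR FDR 8.73e-06) and PGD by -0.27 (SE 0.06, FDR 8.99e-05), and PGLS differed by -0.01 (95% interval -0.18 to 0.16). In all 6 of 7 passed, where 79.1% of genes did, and the same 6 did not overlap between the lines, as for 81.5% of genes. None was past the fold limit, where 45.8% of genes were, with 0 by DESeq2 and limma as well and 6 at an unadjusted edgeR p under 0.05.

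Levels can be compared between genes only per length, for which the deposited RPKM (reads scaled to gene length and library size) were used. In Caco-2 control cells PGD led with 67.1 ± 1.66 RPKM (SD, n = 3), followed by TALDO1 with 60.7 ± 3.62, TKT with 31.2 ± 1.20 and RPE with 15.4 ± 1.56. RPIA (13.3 ± 0.532 RPKM) and PGLS (12.3 ± 1.16) overlapped in their libraries, and H6PD was lowest with 9.43 ± 0.472. In HT-29 control cells TALDO1 led with 95.2 ± 1.20 RPKM, then PGD with 52.7 ± 0.880 and TKT with 39.1 ± 0.556. There RPIA (20.2 ± 1.91 RPKM) and RPE (19.1 ± 0.735) overlapped, above PGLS (11.6 ± 0.818) and H6PD (6.73 ± 0.339).

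With treatment the order changed at several places. In HT-29 TKT passed PGD, standing second with 185 ± 2.42 RPKM (CoCl2) and 106 ± 2.95 RPKM (OD), behind TALDO1 with 304 ± 8.29 and 133 ± 0.731. RPIA sank below PGLS with CoCl2, to 6.62 ± 0.877 RPKM in HT-29 and 8.56 ± 0.431 in Caco-2. With OD it did so in HT-29 as well (13.6 ± 0.183 against 15.4 ± 0.0929 RPKM), while RPIA and PGLS overlapped in Caco-2. In Caco-2 with CoCl2, PGD (95.4 ± 6.27 RPKM) and TALDO1 (92.0 ± 6.98) overlapped. H6PD was lowest in all 6 groups, down to 2.66 ± 0.126 RPKM in HT-29 with CoCl2. Summed over the 7 genes the mean level was 209 RPKM in Caco-2 control cells, 290 with CoCl2 and 210 with OD, and 245, 685 and 391 in HT-29. In HT-29 with CoCl2, TALDO1, TKT and PGD made up 44.5%, 27.0% and 23.7% of this sum.

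**Figure D3:**
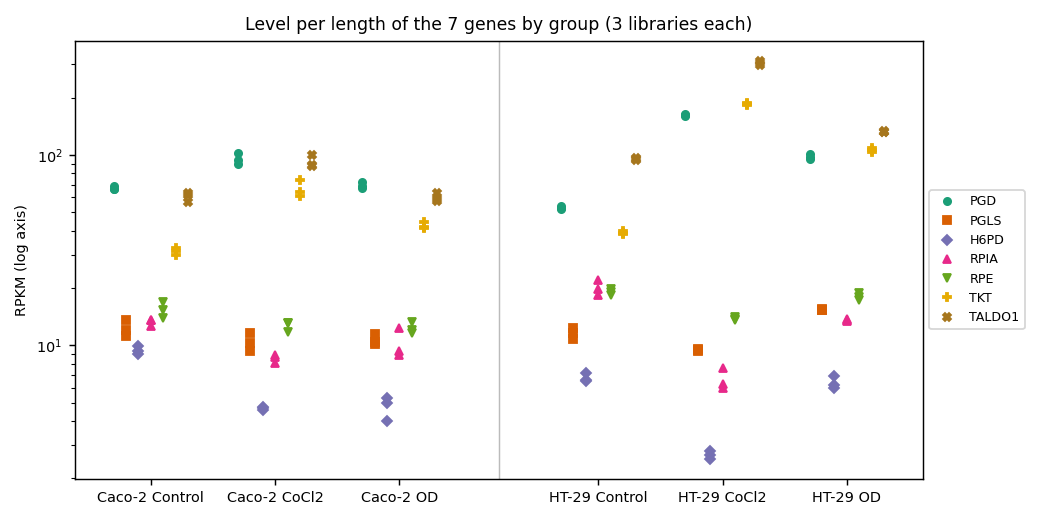
Level per length in RPKM (log axis) of PGD, PGLS, H6PD, RPIA, RPE, TKT and TALDO1 in the 6 groups, with 1 symbol for each of the 3 libraries. PGD, TKT and TALDO1 form the upper set in every group, and the gap to the other 4 genes is widest in HT-29 with CoCl2, where TALDO1 is at 304 and H6PD at 2.66 RPKM on average.

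Ratios of 2 sets of genes within a library do not depend on how libraries are scaled. They were chosen after the values were seen and are given as a description. The transferases to the pentose phosphate sorting enzymes (TKT plus TALDO1 over RPIA plus RPE, as RPKM) stood at 3.20 ± 0.268 (SD, n = 3) in Caco-2 control cells, 7.48 ± 0.888 with CoCl2 and 4.58 ± 0.432 with OD. The same ratio in HT-29 was 3.43 ± 0.196, 24.0 ± 1.38 and 7.55 ± 0.203. No library of a treated group overlapped with control in either line, and the control ratios of the lines overlapped.

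The ratio of PGD to H6PD, of the cytosolic to the endoplasmic reticulum enzyme, was 7.12 ± 0.200 in Caco-2 control cells, 20.4 ± 1.02 with CoCl2 and 14.9 ± 2.77 with OD. The HT-29 values were 7.84 ± 0.434, 61.1 ± 3.51 and 15.5 ± 1.58. With OD the ratios of the lines overlapped, with H6PD low in Caco-2 and PGD high in HT-29. TKT to TALDO1 rose from 0.516 ± 0.0189 to 0.721 ± 0.0306 (CoCl2) and 0.715 ± 0.0481 (OD) in Caco-2, and from 0.411 ± 0.00943 to 0.608 ± 0.00888 and 0.797 ± 0.0229 in HT-29. PGD to PGLS stood at 5.49 ± 0.621, 9.22 ± 0.415 and 6.53 ± 0.519 in Caco-2 and at 4.57 ± 0.276, 17.1 ± 0.181 and 6.36 ± 0.234 in HT-29 for control, CoCl2 and OD.

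**Figure D4:**
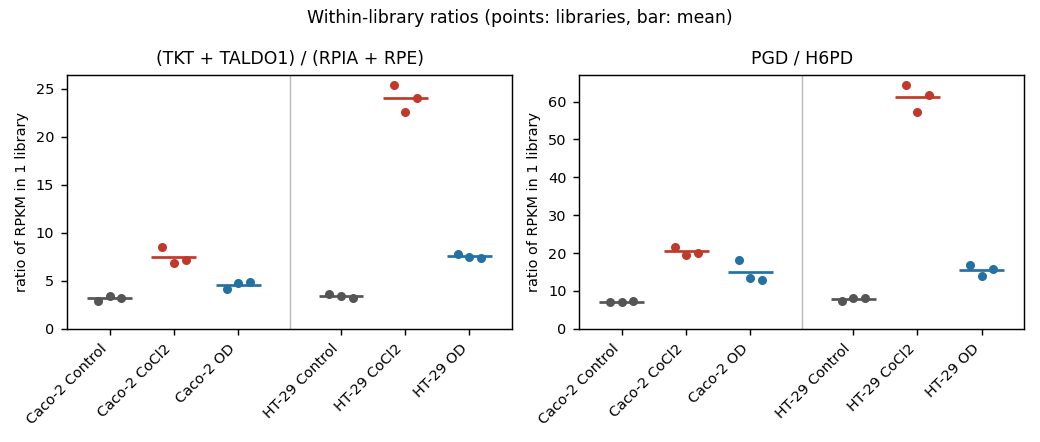
Ratios of RPKM within each library (linear axis from 0), with 1 point for each of the 3 libraries of a group and a bar at the mean, for TKT plus TALDO1 over RPIA plus RPE and for PGD over H6PD. Both ratios lie near each other in the control cells of the lines (3.20 and 3.43, and 7.12 and 7.84) and are highest in HT-29 with CoCl2, at 24.0 and 61.1.

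Across the 18 libraries, with the mean of each line subtracted, log2 CPM of TKT and PGD had a Pearson r of 0.98, PGD and TALDO1 of 0.95 and TKT and TALDO1 of 0.91, while PGD and RPIA had -0.92. These points share the 6 groups and their treatments, so r mostly restates the group differences. Among 10436 genes the most alike in this measure were APOL1 (r = 0.997), LIPG (0.995) and CRY2 (0.994) for PGD, and OSGIN1 (0.994), SQSTM1 (0.991) and APOL2 (0.990) for TKT. For TALDO1 they were ABCF1 (0.992), PSMB4 (0.991) and ITPKC (0.991). H6PD was nearest to GSAP (0.990), OXLD1 (0.986) and ERCC2 (0.986), and RPIA to ANXA13 (0.983), FAM120AOS (0.981) and KCNE3 (0.979).

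Other genes that handle pentose phosphates, a list of 14 with paralogs of the 7 enzymes and the synthetases of phosphoribosyl pyrophosphate, went in both directions, and 10 of them were expressed enough to be tested. With CoCl2 2 rose, 3 fell and 5 did not pass in Caco-2, and 4 rose, 5 fell and 1 did not pass in HT-29, with median log2 fold changes of -0.18 and -0.16. With OD 4 rose and 2 fell in Caco-2 and 3 rose and 5 fell in HT-29, with medians of 0.15 and -0.20. The medians of the 7 enzymes were -0.21 and -0.20 with CoCl2 and -0.17 and 0.43 with OD, in Caco-2 and HT-29, and those of all genes lay between -0.03 and 0.01. The shares of all genes that rose and fell in these 4 comparisons, given with the counts of the 7 enzymes above, also stand beside each list that follows. PRPS1 and PRPS2, which make phosphoribosyl pyrophosphate from ribose 5-phosphate, parted with CoCl2 in HT-29, where PRPS1 rose by 1.09 (edgeR FDR 1.55e-16) and PRPS2 fell (-1.64, FDR 9.17e-11).

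Of 14 genes for other sources and uses of NADPH, 3 rose and 10 fell of 14 tested with CoCl2 in Caco-2 (median -0.53), and 5 rose and 8 fell of 13 in HT-29 (median -0.52). With OD 3 rose and 6 fell in Caco-2 (median -0.20) and 6 rose and 5 fell in HT-29 (median -0.15). The genes that rose included the NADPH users TXNRD1 (thioredoxin reductase) and GSR (glutathione reductase) and the NADPH source ME1 (cytosolic malic enzyme). With CoCl2 TXNRD1 rose by 2.43 and 3.67, GSR by 1.39 and 2.56 and ME1 by 1.89 and 3.56 in Caco-2 and HT-29. MTHFD1, a folate enzyme, fell with CoCl2 (-0.54 and -1.13), and so did ME3, the mitochondrial malic enzyme (-1.04 and -1.05).

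Of 13 NRF2 target genes outside the pathway, 11 rose and 1 fell of 12 tested with CoCl2 in Caco-2 (median 1.65), and 12 rose and 1 fell of 13 in HT-29 (median 3.47). With OD 8 of 12 rose in Caco-2 (median 0.40) and 12 of 13 in HT-29 (median 1.36), and 1 fell in each line. HMOX1 (heme oxygenase) rose by 5.11 and 8.77 with CoCl2 and by 0.45 and 1.36 with OD, in Caco-2 and HT-29. OSGIN1 rose by 3.10, 5.23, 1.22 and 3.32 in the same order, and GCLM, a subunit of the glutathione synthesis enzyme, by 2.60, 4.07, 0.45 and 1.36. ABCC2, an exporter of glutathione conjugates, rose in all 4 comparisons, in HT-29 by 5.96 (CoCl2) and 2.32 (OD). FTL (ferritin light chain) rose by 1.93 and 3.81 with CoCl2 and by 1.41 with OD in HT-29, and its change with OD in Caco-2 was 0.05 (edgeR FDR 0.585).

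Of 12 genes of upper glycolysis and its reversal, 9 rose and 1 fell with CoCl2 in Caco-2 (median 1.73) and 10 rose and 1 fell in HT-29 (median 2.45). With OD 9 rose and 2 fell in Caco-2 (median 1.41) and 10 rose and 1 fell in HT-29 (median 0.98). HK2 (hexokinase) rose by 3.56 and 4.52 with CoCl2 and by 3.18 and 1.10 with OD, and PFKP (phosphofructokinase) by 2.93, 2.74, 3.03 and 1.31. GPI, which converts glucose 6-phosphate to fructose 6-phosphate, rose by 2.21, 2.92, 1.65 and 0.91. The aldolases rose as well, ALDOA by 3.54, 3.70, 2.43 and 1.33 and ALDOC by 1.79, 3.21, 1.74 and 2.54. ALDOA started low in Caco-2, at 57, 62 and 61 counts in the control libraries. Its OD libraries there spread widely, at 31.0, 17.1 and 14.7 CPM.

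Genes of nucleotide synthesis, which consumes ribose 5-phosphate, went both ways in Caco-2 and mostly fell in HT-29. Of 15 genes 7 rose and 7 fell with CoCl2 in Caco-2 (median 0.03), and 1 rose and 14 fell in HT-29 (median -1.01). With OD 6 rose and 6 fell in Caco-2 (median -0.08), and 14 fell and 0 rose in HT-29 (median -0.49). CAD and PFAS, enzymes of pyrimidine and purine synthesis, fell in all 4 comparisons, CAD from -0.49 with OD in HT-29 to -2.60 with CoCl2 in HT-29. RRM2, a subunit of ribonucleotide reductase, rose in Caco-2 by 0.66 with CoCl2 and by 1.40 with OD, and fell in HT-29 (-0.91 and -0.14). ATIC fell in all 4 comparisons (-0.77 to -1.27), and GART fell in HT-29 (-1.25 with CoCl2 and -0.45 with OD).

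**Figure D5:**
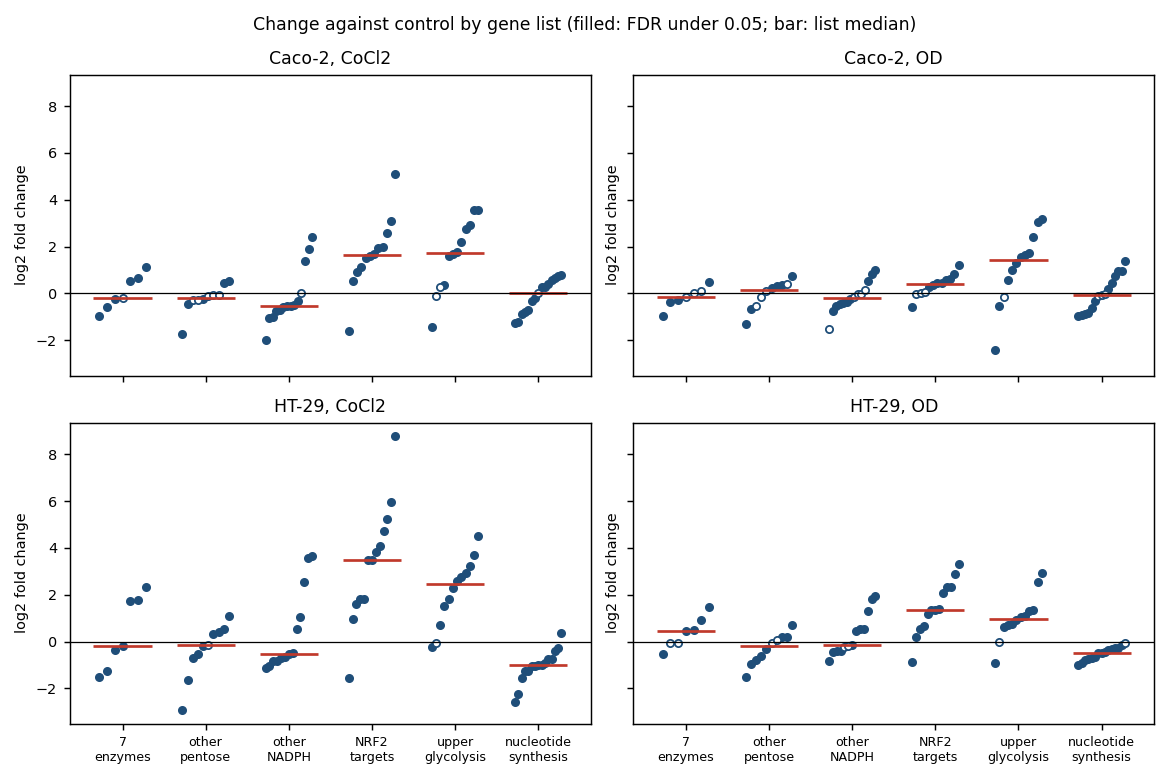
Log2 fold change against control of each tested gene of 6 lists (the 7 enzymes, other pentose phosphate genes, other NADPH genes, NRF2 targets, upper glycolysis, nucleotide synthesis), with filled points for an FDR under 0.05 and a red bar at the list median. The NRF2 target list has its highest median with CoCl2 in HT-29 (3.47), and the 7 enzymes spread on both sides of 0 in each panel.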

How the data were processed

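RNA was measured by single-end 75-nucleotide sequencing of stranded mRNA libraries. The submitters' processing notes name cutadapt 2.10, FastQC 0.11.9, STAR 2.7.5b, Bowtie 1.1.1, edgeR 3.30.3 and GRCh38.p13, without their roles; the counting tool and its use of strand are not given in the sources used here. The authors deposited raw counts per gene and a table of log2 values. Read as log2(RPKM + 1), these gave back the counts over a fixed gene length within each line, up to 1 factor a library. Which library sizes lay behind those factors could not be told from this check. RPKM were obtained by undoing that log2. The 7 genes and the gene lists were chosen with earlier results of these data known.

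Counts were tested with edgeR 4.0.16 (R 4.3.3): TMM scaling, filterByExpr by group, the two-sided quasi-likelihood test and Benjamini-Hochberg adjustment over all genes tested. The 9 libraries of a line were fitted together for comparisons within it, and all 18 for comparisons between lines. "Rose" and "fell" stand for an FDR under 0.05, and the fold limit was a log2 fold change of 1 in size, both after the study. CPM were computed on the same scaled library sizes. From each list at most 5 genes were named, by the largest change among those past both limits in at least 1 comparison with control and with a mean count of at least 100. Genes most alike a member were the 3 with the highest Pearson r. Alternatives were library size only, DESeq2 1.42.0, limma 3.58.1 on the deposited log2 table, no filter, 1 fit over 18 libraries, other fold limits, a replicate block, lengths from the annotation and leaving out each library. Leaving out both Caco-2 libraries that stood apart, and other fold limits between lines, were added after the data were seen. The fits were checked on simulated data. The libraries held 12925719 to 22332639 counts. The 18 miRNA libraries were not used here. Counts set the precision: replicate spread is in each SE, and no separate counting interval was used.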

Additional observations from a re-analysis of the deposited data

Results flagged for a closer look

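The response to CoCl2 differed between the lines, by the edgeR test of the difference itself and by more than 1 on the log2 scale, for 4 of the 7 genes. HT-29 minus Caco-2 was 1.06 for PGD, 1.10 for TKT, 1.02 for TALDO1 and -1.02 for RPIA. The levels behind these differences are means of 3 libraries, on library sizes scaled over all 18 libraries as in that test. The CPM of these genes given further above were scaled within each line and differ somewhat. For PGD the levels are 215 and 315 CPM (control and CoCl2) in Caco-2 and 178 and 543 CPM in HT-29. For TKT they are 286 and 624 against 377 and 1765 CPM. For TALDO1 they are 170 and 264 against 281 and 888 CPM, and for RPIA 23.2 and 15.3 against 37.1 and 12.0 CPM. All 4 lie within 0.11 of the limit of 1 in size, and the number that pass it went down to 1 on library size alone and to 2 without the second CoCl2 library of Caco-2, and leaving out 1 of 5 other libraries took TALDO1 or RPIA below it, while the FDR stayed under 0.05 for each.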

How the results depend on the processing

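Of 840 alternative values for single genes, 792 kept direction and side of the FDR limit, 20 passed it newly, 12 no longer passed and 16 changed sign, none of these past the FDR in the main test. The number of the 7 genes past both limits was 6 with no fold limit and 4 with a limit of 0.58 (main value 1) for CoCl2 in Caco-2, 4 and 1 (main value 0) for OD in Caco-2, 3 and 2 (main value 0) for CoCl2 against OD in Caco-2, 5 and 2 (main value 1) for OD in HT-29, 7 and 6 (main value 2) for CoCl2 against OD in HT-29, and, tried after the data were seen, 5 and 4 (main value 0) for the OD difference between lines and 6 and 2 (main value 0) between control cells. Library size alone gave 1 for OD in Caco-2 and 1 for the CoCl2 difference between lines. Leaving out 1 library gave 1 to 2 for CoCl2 in Caco-2, 0 to 1 for OD in Caco-2, 2 to 3 for CoCl2 against OD in HT-29 and 2 to 4 for the CoCl2 difference between lines. The genes past the FDR alone numbered 2 to 4 for OD in Caco-2 (2 without the second OD library). Sign changes on library size alone were those of PGD (-0.0688) and TALDO1 (-0.143) with OD in Caco-2 and RPE (-0.121) in CoCl2 against OD there. TALDO1 with OD in Caco-2 gave -0.0229 with limma, PGLS 0.00842 in the CoCl2 difference between lines with DESeq2, and PGLS 0.0145 between control cells without the filter. Leaving out libraries gave -0.0374 to 0.0452 for TALDO1 with OD in Caco-2, and in CoCl2 against OD there -0.119 to 0.0333 for PGLS, -0.128 to 0.0526 for H6PD and -0.000849 to 0.163 for RPE. Between control cells it gave -0.0722 to 0.0658 for PGLS. The cause was not tested. With lengths from the annotation and the TMM scaling within each line, HT-29 levels moved to 167.8 (PGD), 9.81 (PGLS), 14.3 (RPE), 314 (TALDO1) and 191 RPKM (TKT) with CoCl2. They moved to 51.0 (PGD), 92.2 (TALDO1) and 37.9 (TKT) in control, and to 15.2 (PGLS), 13.4 (RPIA) and 131 (TALDO1) with OD. Same-numbered libraries did not deviate together (r -0.06 to 0.07 in Caco-2 and -0.04 to 0.02 in HT-29, 0 of 9 pairs over 0.1 in each), so the numbers do not pair samples. With the replicate block 1 and 5 genes were past both limits for CoCl2 (Caco-2, HT-29), 0 and 1 for OD, and 4 in the CoCl2 difference, as without it. RPIA, with as few as 143 counts in a library, had the largest SE of the 7 genes in each comparison.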
